A study of Mus musculus with 11 samples.

Results

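Schwann cells and melanocytes both derive from the neural crest, an embryonic tissue in which Pax3 is active, as it is in the muscle progenitors that these samples were sorted for. The 7 genes described here are used as genes of those lineages: the myelin genes Mbp, Cnp and Pmp22, the transcription factor genes Sox10 and Mitf, the endothelin receptor gene Ednrb and the calcium-binding protein gene S100b. They were chosen by name, and every probe set annotated with 1 of these symbols alone was taken, which gave 22 of 45037 probe sets and 7 of 18193 genes. Mbp had 8 probe sets, Cnp, Sox10 and Ednrb had 3 each, Mitf and S100b had 2 each, and Pmp22 had 1.

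The cells were GFP-positive cells sorted by flow cytometry from digested muscle of Pax3GFP/+ mice, in which 1 Pax3 allele makes GFP, on a C57BL/6J background, with dead cells removed by propidium iodide. Total RNA was measured on Affymetrix Mouse Genome 430 2.0 arrays at postnatal day 1 (P1, 4 arrays), day 12 (P12, 4 arrays) and day 28 (P28, 3 arrays). All 3 ages carried the same genotype, no wild-type or GFP-negative cells were among these arrays, and the gate rests on GFP from the Pax3 locus alone. Arrays of 1 age are labelled as biological replicates, with no count of animals per array, so the p-values measure the spread between these arrays. P1 and P12 came from trunk muscles with satellite cells that the labels call proliferant. P28 came from abdominal, pectoral and intercostal muscles, and its internal sample names carry another year-like suffix and begin with the code of P1. Age, muscle and a possible batch therefore cannot be told apart at P28.

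In nerves, Sox10 is needed to form Schwann cells and turns on myelin genes, and the myelin sheath is then built from lipids and a small set of proteins that includes MBP, CNP and PMP22. In melanocytes, SOX10 activates Mitf, and MITF drives the pigment enzyme genes Tyr, Tyrp1 and Dct. EDNRB, the receptor for endothelins, guides melanocyte and enteric nerve precursors and is also made by endothelial and other cells, and several of the 7 genes are likewise active outside the neural crest.

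To show where SOX and MITF factors could be looked for, the bases before the annotated gene start are given for Cnp and Pmp22. These are the myelin genes with a called increase at P28 over P1 among the genes whose sequences were searched. Mbp also had called increases, but neither Mbp nor Sox10 was among the genes searched. The sequences are from RefSeq on GRCm38.p6, plus strand, 5′ to 3′, and capitals mark the SOX core ACAAAG.
Cnp, chr11:100574689-100574908: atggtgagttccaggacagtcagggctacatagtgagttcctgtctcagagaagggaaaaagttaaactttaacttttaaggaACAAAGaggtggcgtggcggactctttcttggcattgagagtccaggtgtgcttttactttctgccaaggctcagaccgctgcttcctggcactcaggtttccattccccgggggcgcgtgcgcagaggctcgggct
Pmp22, chr11:63128732-63128981: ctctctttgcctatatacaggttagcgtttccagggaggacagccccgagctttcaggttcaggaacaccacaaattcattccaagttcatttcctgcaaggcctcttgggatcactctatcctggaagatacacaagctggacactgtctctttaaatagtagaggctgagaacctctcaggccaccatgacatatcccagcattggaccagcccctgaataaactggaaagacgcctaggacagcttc
The SOX core ACAAAG and the E-boxes CACGTG and CATGTG, read on both strands, were searched in the 250 bases before each RefSeq start. Of 10 such windows of the 5 genes searched, 1 held a match, the SOX core of Cnp at bases -167 to -162 from the start that the window belongs to. That window, chr11:100574689-100574938, runs past the annotated gene start at 100574909, before which the printed sequence ends. The positions are therefore not counted from the end of the printed sequence. Among all 32851 windows, 16.5% held ACAAAG, 6.02% held CACGTG and 12.3% held CATGTG. A match describes the letters only.

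Values are log2 expression values made by the authors with RMA (robust multi-array average), 1 per probe set and array. Rose and fell refer to a Benjamini-Hochberg adjusted p under 0.05 over all 45037 probe sets in limma's moderated test on all 11 arrays. Levels of different probe sets are not compared, because probes differ in brightness. As a reference for dim probe sets, the 95th percentile of 80 olfactory and vomeronasal receptor probe sets was 5.16. In these sorted bulk samples, fewer cells of a type and less RNA per cell cannot be told apart.

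Between P12 and P1, 0 of the 22 probe sets passed the test, against 4.84% of all probe sets, and 3 had an unadjusted p under 0.05. With a block for replicate number or array set in fits of the P1 and P12 arrays alone, 2 passed, as described for Ednrb. Between P28 and P12, 5 rose and 0 fell, against 13.5% of all probe sets that rose and 15.9% that fell. Between P28 and P1, 8 rose and 0 fell, against 17.6% and 17.4% of all. The 5 probe sets that rose over P12 were 2 of Mbp and all 3 of Ednrb. The 8 over P1 were these and 1 each of Cnp, Pmp22 and Mitf, while no probe set of Sox10 or S100b passed in any comparison. All P28 arrays were above all P12 arrays in 5 probe sets, against 15.4% of all probe sets, and above all P1 arrays in 7, against 19.3%. The median log2 change of the 22 was -0.05 for P12 against P1, 0.19 for P28 against P12 and 0.34 for P28 against P1, beside 0.01, -0.05 and -0.05 over all probe sets. Across the 3 ages, limma's F test called 8 of the 22, against 36.3% of all probe sets. The P28 comparisons share the P28 arrays, so they are not independent of each other. The shares of all probe sets that rose or fell also stand beside the counts of the gene lists below. Those list counts use only the brightest probe set of each gene.

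**Figure D1:**
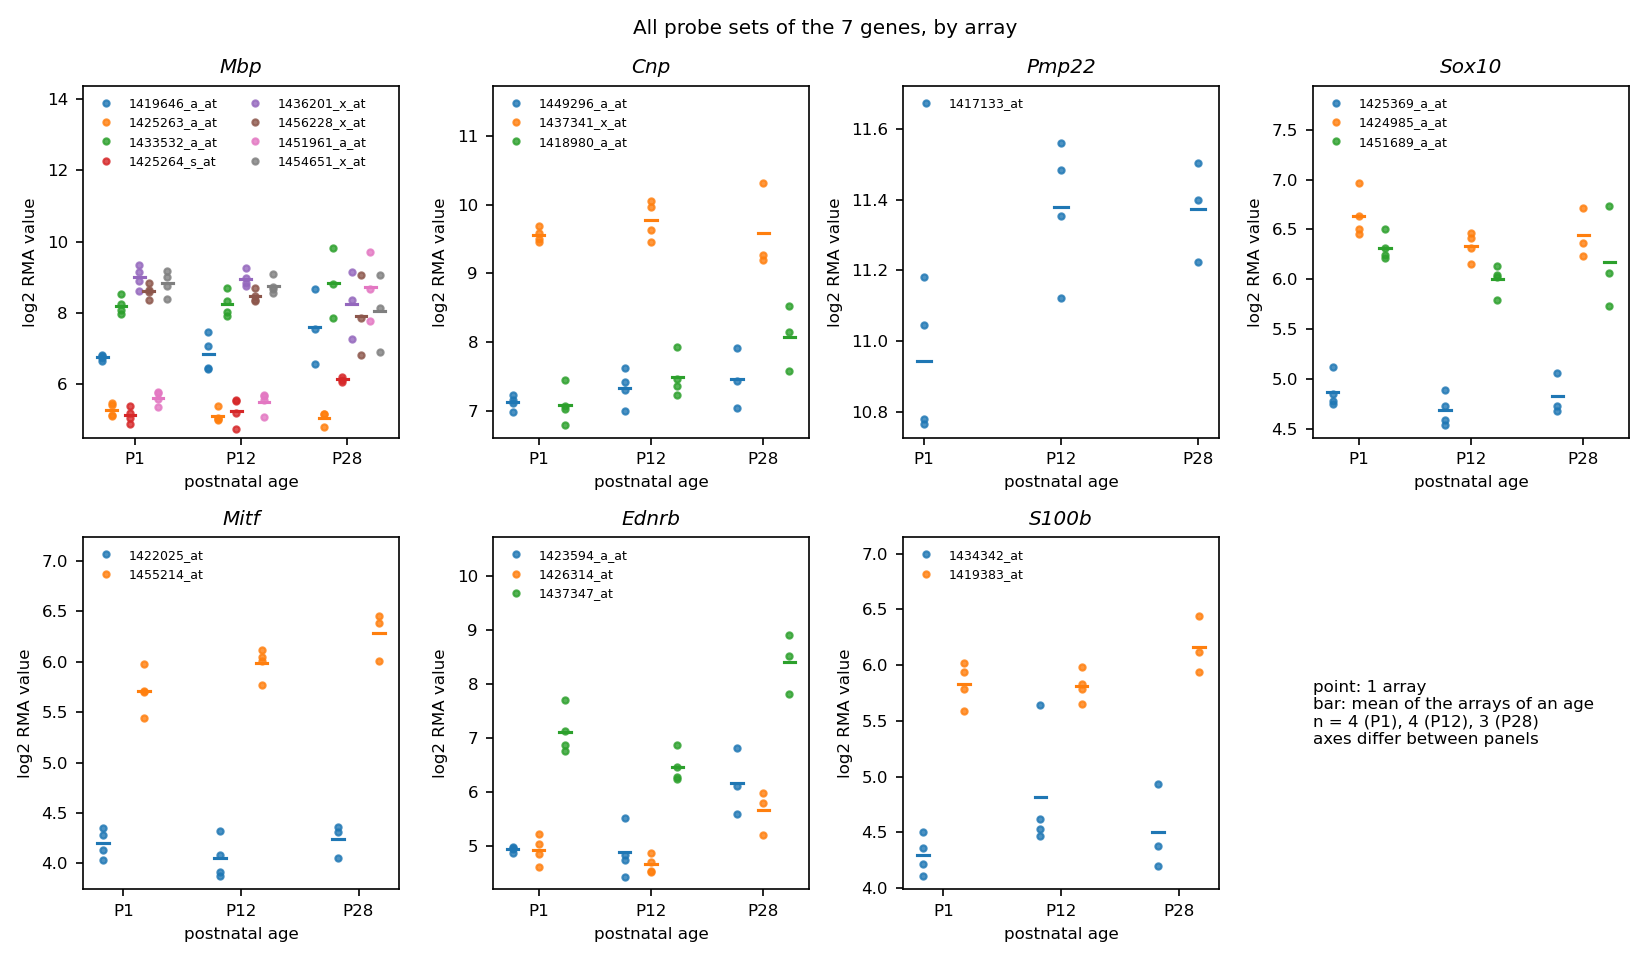
Log2 RMA values (y axis) of all 22 probe sets by postnatal age (x axis), 1 panel per gene, 1 colour per probe set; points are arrays (4 at P1, 4 at P12, 3 at P28) and bars are means. The 3 P28 points of Mbp 1451961_a_at lie at 7.76 or above and all P1 and P12 points at 5.77 or below, whereas the Mbp probe sets ending in _x_at have their lowest point at P28.

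**Figure D2:**
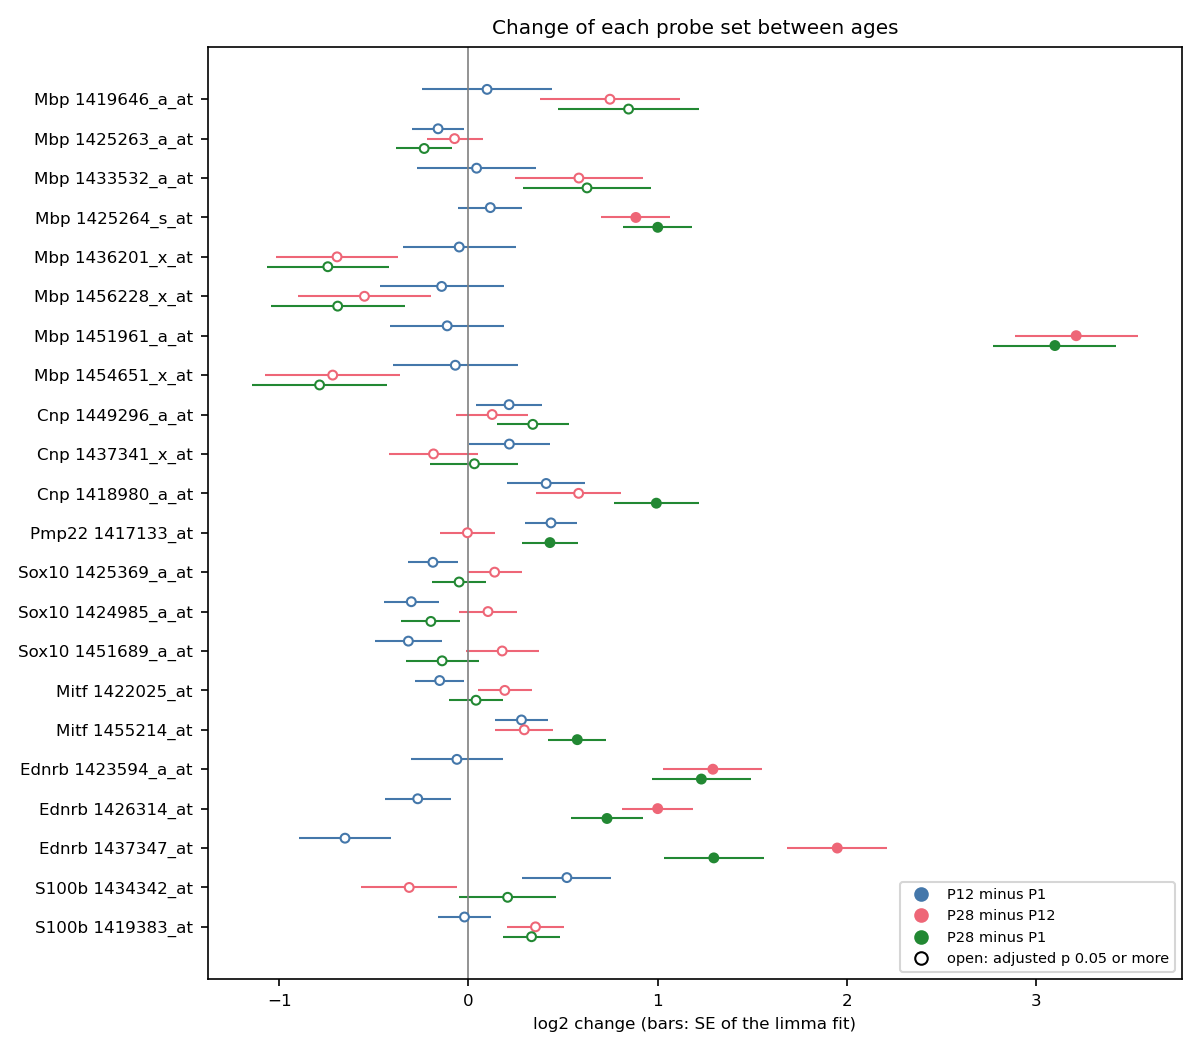
Log2 change of each probe set (y axis) with its SE from the limma fit (bars; x axis) for P12 minus P1, P28 minus P12 and P28 minus P1; filled points passed at an adjusted p under 0.05. All filled points lie to the right of 0, and Mbp 1451961_a_at lies farthest right at 3.21 for P28 minus P12.

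Mbp encodes myelin basic protein, which holds the cytoplasmic faces of the myelin membrane together, and the same locus also gives Golli transcripts in other cell types. Mbp 1451961_a_at had 5.36, 5.77, 5.59 and 5.75 at P1, 5.56, 5.69, 5.68 and 5.09 at P12 and 7.76, 9.72 and 8.67 at P28. Every P28 array was above every P12 and P1 array, and P12 and P1 overlapped. The value rose by 3.21 ± 0.33 (log2, SE) at P28 against P12, which is 9.27-fold (limma, adjusted p = 1.03e-05), and by 3.10 ± 0.33 against P1, which is 8.58-fold (adjusted p = 8.28e-06). Without P28 replicate 2, the highest array, the change against P12 was 2.71 and still passed.

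Mbp 1425264_s_at had 5.40, 5.20, 4.90 and 5.07 at P1, 5.53, 5.55, 5.19 and 4.76 at P12 and 6.14, 6.08 and 6.21 at P28. The 3 P28 arrays were again above all others and lay close together. Which transcripts this _s_at probe set reads is not given in the sources used here. It rose by 0.89 ± 0.18 against P12 (limma, adjusted p = 0.00242) and by 1.00 ± 0.18 against P1 (adjusted p = 0.000779). It was above the olfactory reference level on 8 of 11 arrays, and all P1 and P12 arrays were near that level, at 5.55 or below.

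The other 6 Mbp probe sets passed in no comparison over all 11 arrays and did not move together. Mbp 1419646_a_at had 6.65 to 6.84 at P1, 6.45 to 7.47 at P12 and 6.57, 8.68 and 7.56 at P28. Mbp 1433532_a_at had 7.97 to 8.52 at P1, 7.90 to 8.71 at P12 and 7.87, 9.82 and 8.81 at P28. In both, P28 replicate 2 lay far above all P12 and P1 arrays, while replicate 1 lay within the younger arrays in Mbp 1419646_a_at and just below all of them in Mbp 1433532_a_at. Without P28 replicate 1 both rose against P12, by 1.27 (adjusted p = 0.009) and 1.07 (adjusted p = 0.0125).
The probe sets whose names end in _x_at, the maker's mark for probes that may match other transcripts, ran the other way in 2 of 3 P28 arrays. Mbp 1436201_x_at had 9.35, 9.14, 8.63 and 8.90 at P1, 8.98, 9.26, 8.83 and 8.76 at P12 and 7.28, 9.16 and 8.35 at P28. Replicates 1 and 3 of P28 were below all other arrays and replicate 2 was among them. Mbp 1454651_x_at, with 6.92, 9.06 and 8.15 at P28, showed the same order. In Mbp 1456228_x_at, with 6.83, 9.07 and 7.87 at P28, replicates 1 and 3 were again the lowest arrays, and replicate 2 was above all P12 and P1 arrays. Their changes against P12 were -0.69 ± 0.32, -0.72 ± 0.36 and -0.55 ± 0.35 (limma, adjusted p between 0.125 and 0.273). Without P28 replicate 2 all 3 fell, by 1.14, 1.23 and 1.12 (adjusted p between 0.00441 and 0.0086), and without P28 replicate 1 the changes were -0.20, -0.16 and -0.003 and did not pass. The last probe set, Mbp 1425263_a_at, had 5.12 to 5.47 at P1, 5.01 to 5.39 at P12 and 4.81 to 5.18 at P28, near the olfactory reference level. Which transcripts each probe set reads is not given in the sources used here.

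Cnp encodes an enzyme anchored in the inner layers of myelin, CNPase, which many other cells make at a lower level. Cnp 1418980_a_at had 7.07, 7.03, 6.79 and 7.45 at P1, 7.37, 7.46, 7.23 and 7.93 at P12 and 7.58, 8.52 and 8.14 at P28. All P28 arrays were above all P1 arrays, while P28 replicate 1 lay within the P12 range. It rose by 0.99 ± 0.22 against P1 (limma, adjusted p = 0.00343), and its change of 0.58 ± 0.22 against P12 did not pass (adjusted p = 0.0659). The change against P12 passed with the replicate block (0.72, adjusted p = 0.0114), without dim probe sets (0.58, adjusted p = 0.0472), without P12 replicate 4 (0.73, adjusted p = 0.0256) and without P28 replicate 1 (0.83, adjusted p = 0.0131). Without P28 replicate 2 it was 0.36 and did not pass. Of its other probe sets, Cnp 1449296_a_at had 7.04, 7.91 and 7.43 at P28 and Cnp 1437341_x_at had 9.19, 10.31 and 9.27. Both overlapped the younger arrays and passed in no comparison, with changes against P12 of 0.13 ± 0.19 and -0.18 ± 0.23. Without P28 replicate 2, Cnp 1437341_x_at fell by 0.55 against P12 (adjusted p = 0.037).

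Pmp22 encodes a tetraspan membrane protein of compact peripheral myelin that was first found as a growth arrest gene of fibroblasts. Its only probe set, 1417133_at, had 11.05, 11.18, 10.77 and 10.78 at P1, 11.49, 11.35, 11.12 and 11.56 at P12 and 11.50, 11.22 and 11.40 at P28. P28 and P12 lay together, and all P28 arrays were above all P1 arrays by a small step. The change was 0.43 ± 0.15 for P28 against P1 (limma, adjusted p = 0.0343), 0.44 ± 0.14 for P12 against P1 (adjusted p = 0.0876) and -0.01 ± 0.15 for P28 against P12, with a 95% interval of -0.32 to 0.31. The call against P1 was lost without P1 replicate 3, P1 replicate 4, P28 replicate 1 or P28 replicate 3 (changes of 0.37, 0.38, 0.37 and 0.42), and under a further quantile normalization, where the change was 0.15.
Of the related Pmp22 and Emp family, 2 of 5 genes measured rose and 0 fell at P28 against P12, and 3 rose and 1 fell against P1. Emp1 rose by 1.27, Emp2 by 1.00 and Emp3 by 0.77 against P1, and Perp fell by 0.83. Perp was above the olfactory reference level on 2 of 11 arrays, P1 replicates 1 and 3.

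Sox10 encodes the SOX factor that defines Schwann cells and the whole neural crest glia. Sox10 1424985_a_at had 6.46, 6.51, 6.96 and 6.63 at P1, 6.32, 6.15, 6.41 and 6.47 at P12 and 6.24, 6.72 and 6.37 at P28. Sox10 1451689_a_at had 6.31, 6.24, 6.50 and 6.21 at P1, 6.14, 6.05, 6.02 and 5.79 at P12 and 5.73, 6.74 and 6.07 at P28. All P12 arrays of the second were below all P1 arrays, the 1 such case among the 22 probe sets, against 4.16% of all probe sets, and its change of -0.32 ± 0.18 did not pass (limma, adjusted p = 0.377). Between P28 and P1 both probe sets overlapped, with changes of -0.20 ± 0.16 and -0.14 ± 0.19 and 95% intervals of -0.53 to 0.14 and -0.55 to 0.27. Sox10 1425369_a_at, at 4.53 to 5.12, was below the olfactory reference level on all 11 arrays.

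Mitf encodes the master regulator of melanocytes, which osteoclasts and mast cells also use. Mitf 1455214_at had 5.71, 5.97, 5.44 and 5.70 at P1, 6.05, 6.01, 6.12 and 5.77 at P12 and 6.38, 6.01 and 6.45 at P28. The P28 arrays were above the P1 arrays, with P28 replicate 2 just above the highest of them, and overlapped P12. It rose by 0.58 ± 0.15 against P1 (limma, adjusted p = 0.0099), and its changes of 0.30 ± 0.15 against P12 and 0.28 ± 0.14 for P12 against P1 did not pass. Mitf 1422025_at, at 3.87 to 4.36, was below the olfactory reference level on all arrays.
Of 9 genes in a list of related MiT factors and lysosomal targets, 6 rose and 0 fell at P28 against P12, and 5 rose and 0 fell against P1. Tfeb, a paralog of Mitf that controls lysosome genes, rose by 1.07 against P12. Ctsk, a cathepsin gene that MITF activates in osteoclasts, rose by 0.95 and Ctsd by 0.90 against P12. Ctsk had fallen by 0.60 at P12 against P1, and at P28 against P1 it rose by 0.35 and Ctsd by 1.23.

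Ednrb was the 1 gene of the 7 in which every probe set rose at P28 against both younger ages. Ednrb 1437347_at had 7.71, 7.14, 6.87 and 6.76 at P1, 6.87, 6.46, 6.28 and 6.25 at P12 and 7.81, 8.51 and 8.91 at P28. All P28 arrays were above all others, and 3 of 4 P12 arrays were below all P1 arrays. It rose by 1.95 ± 0.26 at P28 against P12, which is 3.86-fold (limma, adjusted p = 0.000106), and by 1.30 ± 0.26 against P1, which is 2.46-fold (adjusted p = 0.00168).
Ednrb 1423594_a_at had 4.95, 4.88, 4.97 and 4.99 at P1, 4.74, 4.43, 4.84 and 5.53 at P12 and 5.61, 6.12 and 6.81 at P28. It rose by 1.29 ± 0.26 against P12 (limma, adjusted p = 0.00213) and by 1.23 ± 0.26 against P1 (adjusted p = 0.00231). Before P28, 1 of its 8 arrays was above the olfactory reference level, P12 replicate 4.
Ednrb 1426314_at had 4.86, 5.22, 4.61 and 5.04 at P1, 4.71, 4.88, 4.54 and 4.53 at P12 and 5.22, 5.80 and 5.98 at P28. It rose by 1.00 ± 0.19 against P12 and by 0.73 ± 0.19 against P1 (limma, adjusted p = 0.00129 and 0.00787), and P28 replicate 1 overlapped the P1 arrays. Ednrb 1426314_at was above the olfactory reference level on 4 of 11 arrays, P1 replicate 2 and the 3 P28 arrays. In all 3 probe sets P28 replicate 3 was the highest array and P28 replicate 1 the lowest of its age.

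Between P12 and P1, Ednrb 1437347_at differed by -0.65 ± 0.24 (limma, adjusted p = 0.156). By the check described with the processing, P1 and P12 arrays were alike within replicates 1 and 2 and within 3 and 4, not by number alone. With the number as a block in a limma fit of these 8 arrays alone, 2 of the 22 probe sets passed. Ednrb 1437347_at fell by 0.65 (adjusted p = 0.00937) and Cnp 1418980_a_at rose by 0.41 (adjusted p = 0.0494). With the array sets as the block, 2 also passed. Ednrb 1437347_at fell by 0.65 (adjusted p = 0.0167) and Pmp22 1417133_at rose by 0.44 (adjusted p = 0.0494). With the number as a block in the fit of all 11 arrays, 0 passed. Within replicates 1 and 2 alone the Ednrb change was -0.76, and within replicates 3 and 4 it was -0.55.

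The genes of the endothelin pathway around the receptor were also read from a list. Of 5 measured, 2 rose and 0 fell at P28 against P12, and 3 rose and 0 fell against P1. Edn3, the endothelin that acts on EDNRB in the neural crest, had 7.50 to 8.61 at P1, 8.26 to 9.66 at P12 and 9.84, 10.25 and 10.25 at P28. All P28 arrays were above the others, and Edn3 rose by 1.29 ± 0.32 against P12 (limma, adjusted p = 0.00711) and by 2.01 ± 0.32 against P1 (adjusted p = 0.000248). Ece1, which cuts endothelins to their active form, rose by 0.73 against P12 and 1.16 against P1, and Edn1 rose by 0.78 against P1. Ednra, the other receptor, was not analysed here.

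Markers of other cell types also rose at P28. Of 10 endothelial genes measured, 9 rose and 0 fell against both younger ages, with Cdh5 up by 2.58, Emcn by 2.65 and Pecam1 by 2.43 against P12. The summed linear signal of the 10 genes was 666 to 1140 at P1, 852 to 1292 at P12 and 2473 to 4138 at P28. Of 10 macrophage genes, 3 rose and 0 fell at P28 against P12, with Cd68 up by 1.81 and Lyz2 by 4.04. Against P1, 2 rose and 0 fell, near the 17.6% of all probe sets that rose there. The median log2 change of the 10 macrophage genes was 0.81 against P12 and 0.17 against P1. Between P12 and P1 it was -0.42, and 1 of them fell. The summed signal of the macrophage genes was 1372 to 2361 at P1, 1166 to 1495 at P12 and 2914 to 5724 at P28. In the same comparison with P12, 8 of 8 muscle fibre genes, 7 of 9 fibro-adipogenic cell genes and 7 of 10 genes of pericytes and smooth muscle cells rose, and 0 fell. The part of these markers in the changes of Ednrb, Mbp and the other genes was not tested.

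**Figure D3:**
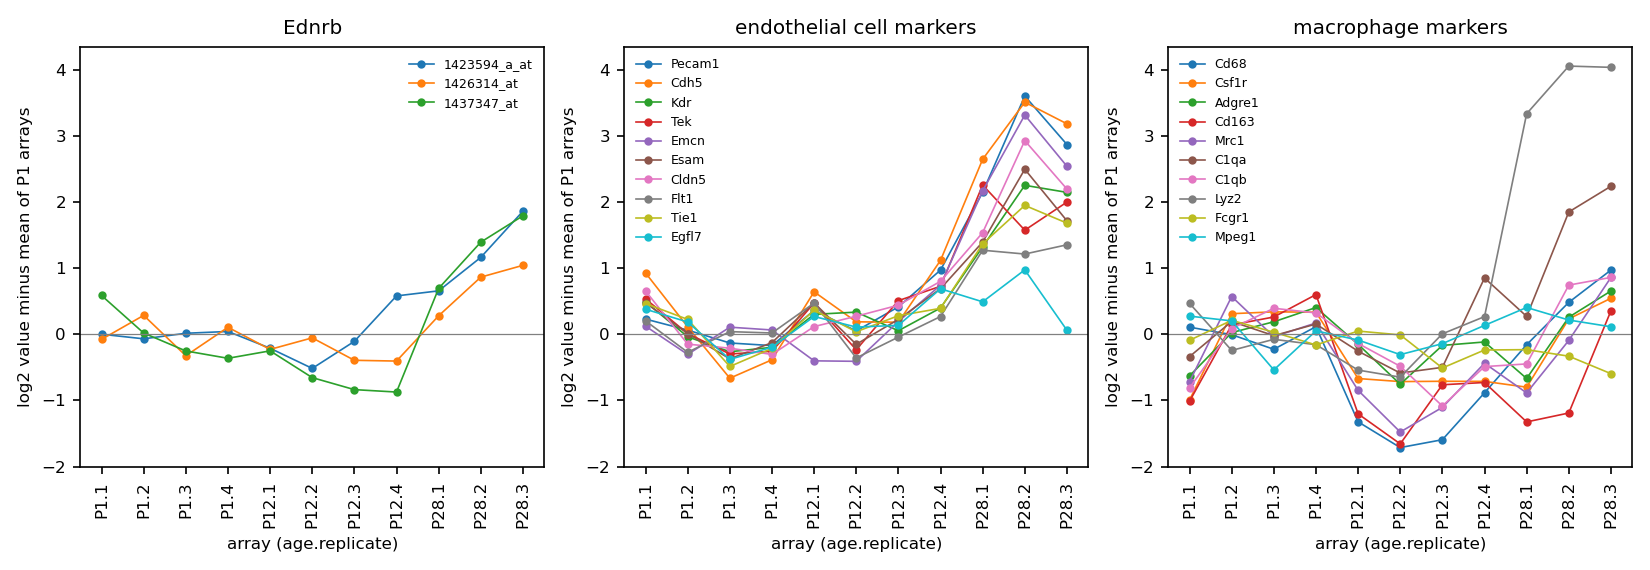
Log2 value minus the mean of the 4 P1 arrays (y axis) on each of the 11 arrays (x axis, age and replicate) for the 3 Ednrb probe sets and for the brightest probe set of each endothelial and macrophage marker. All Ednrb lines are highest in P28 replicate 3, most endothelial lines are highest in P28 replicate 2, and Lyz2 is above 3 on all P28 arrays.

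S100b encodes a calcium-binding protein of Schwann cells and astrocytes that muscle and fat cells can also make. S100b 1419383_at had 6.02, 5.93, 5.78 and 5.59 at P1, 5.65, 5.83, 5.99 and 5.78 at P12 and 6.44, 6.12 and 5.94 at P28. The ages overlapped, and the changes of 0.35 ± 0.15 for P28 against P12 and 0.33 ± 0.15 for P28 against P1 did not pass (limma, adjusted p = 0.0907 and 0.0984). S100b 1434342_at was above the olfactory reference level on 1 of 11 arrays. Of 9 other S100 list genes measured, 6 rose and 1 fell at P28 against P12, and 7 rose and 1 fell against P1. S100a9 and S100a8, made mainly by neutrophils and other myeloid cells, rose by 5.78 and 5.53 against P12, S100a4 by 2.56 and S100a1 by 2.31. The member that fell, S100pbp, encodes a binding protein and no S100 protein.

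The label of the gene set was checked against further markers of both lineages. Of the melanocyte markers, Tyr, Tyrp1 and Dct, the pigment enzyme genes, were below the olfactory reference level on all 11 arrays, at 3.90 to 4.51 for Tyr, 3.63 to 4.37 for Tyrp1 and 3.93 to 5.03 for Dct. Pmel, a pigment granule gene, was above it on all arrays, at 5.33 to 5.84, and passed in no comparison. Of 15 melanocyte genes, 2 rose and 1 fell at P28 against P12, and 1 rose and 1 fell against P1. Of all probe sets, 13.5% rose and 15.9% fell against P12, and 17.6% and 17.4% against P1, so these counts are near or below those shares. Mreg rose by 1.34 and Gpnmb by 0.84 against P12, and Rab38 fell by 1.32. Their summed linear signal was 583 to 607 at P1, 540 to 628 at P12 and 631 to 749 at P28.

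Of the myelinating Schwann cell markers, Egr2, a myelin transcription factor gene that other cells also induce, was at 11.65 to 12.33 at P1, 11.86 to 12.60 at P12 and 11.96 to 12.15 at P28, and passed in no comparison. Of 16 genes, 6 rose and 1 fell at P28 against P12, and 5 rose and 2 fell against P1. Beside these, 13.5% of all probe sets rose and 15.9% fell against P12, and 17.6% and 17.4% against P1. Cd9 rose by 1.82, Mal by 1.09, Drp2 by 0.97 and Pllp by 0.82 against P12, and Dhh, the hedgehog signal of Schwann cells, fell by 1.41. Of 14 genes of Schwann cell precursors and non-myelinating Schwann cells, 3 rose and 1 fell against P12: Scn7a rose by 1.80, Ngfr by 0.78 and L1cam by 0.69, and Erbb3, the neuregulin receptor of the Schwann lineage, fell by 0.87. Cdh19 and Foxd3 were below the olfactory reference level on all arrays.

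**Figure D4:**
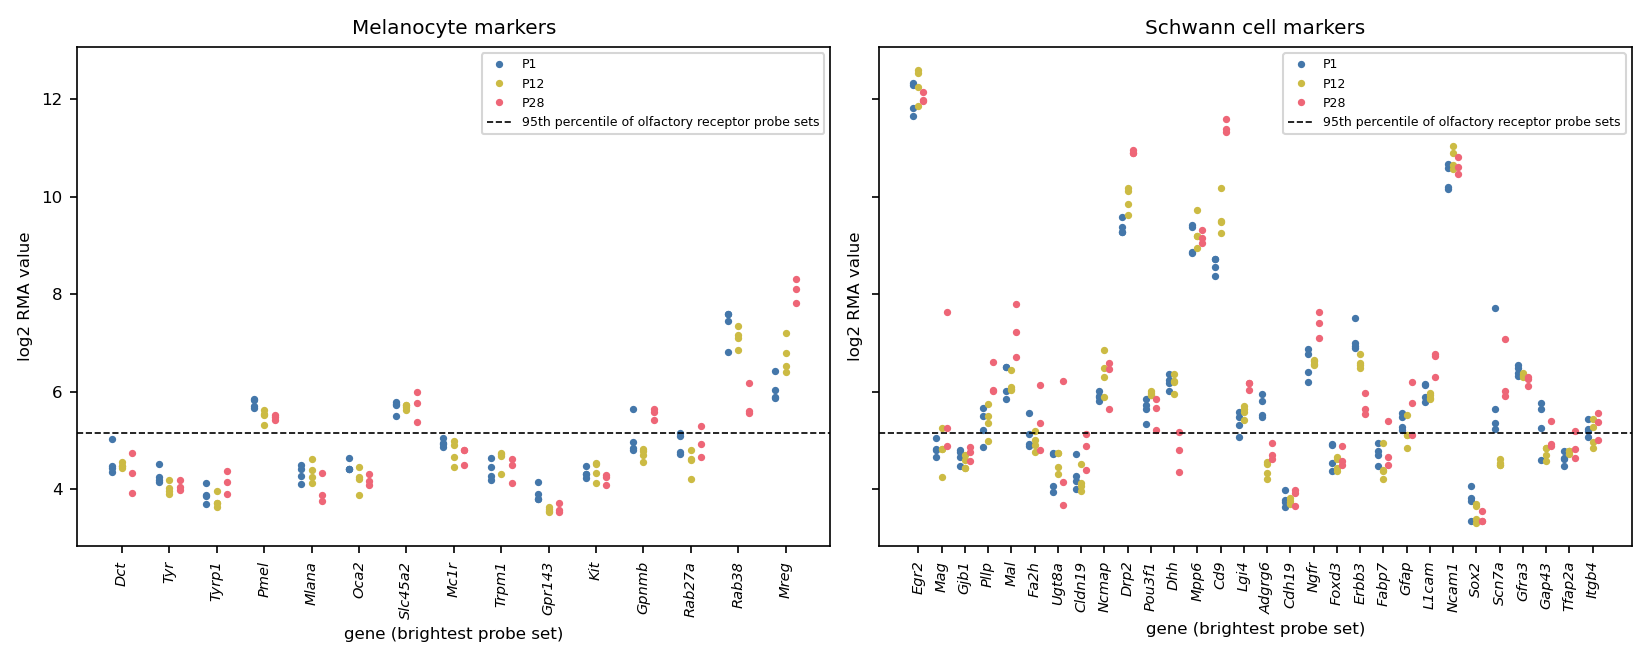
Log2 RMA values (y axis) of melanocyte and Schwann cell markers (x axis, brightest probe set of each gene) on every array, coloured by age; the dashed line is the olfactory reference level of 5.16. Tyr, Tyrp1 and Dct lie below the line on all arrays, Egr2 lies far above it at all ages, and Mag has a single P28 point at 7.63.

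The P28 arrays differed among themselves in the myelin genes. P28 replicate 2 was the highest of its age in 11 of the 14 probe sets of Mbp, Cnp and Sox10 and in 13 of all 22, against 31.4% of all probe sets, and replicate 1 was the lowest in 12 of those 14. In 6 of the 8 Mbp probe sets, replicate 2 exceeded the mean of the other P28 arrays by 1.35 to 1.72. Ednrb and Mitf did not follow this order: in Ednrb 1437347_at replicate 2 exceeded that mean by 0.15, and in Mitf 1455214_at it was 0.41 below.
Further myelin markers stood apart on the same array. Mobp, a myelin gene of the central nervous system, had 4.97, 7.81 and 4.99 at P28, and no P12 or P1 array exceeded 5.13. Cldn11 of the oligodendrocyte list, and Mag and Ugt8a of the myelinating Schwann cell list, all chosen after their values were seen, had 6.96, 7.63 and 6.21 on P28 replicate 2, against at most 4.10, 5.25 and 4.16 on the other P28 arrays. Mog had 4.99 there and Olig2 3.81, both below the olfactory reference level. The summed signal of the 8 oligodendrocyte genes was 216 to 241 at P1, 210 to 234 at P12 and 261 to 728 at P28, and 1 of them, Mal, rose against P12. Their part in the Mbp result was not tested. Without P28 replicate 2, the changes against P12 were 2.71 for Mbp 1451961_a_at and 0.92 for Mbp 1425264_s_at, and both passed, as did the 3 Ednrb probe sets.

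**Figure D5:**
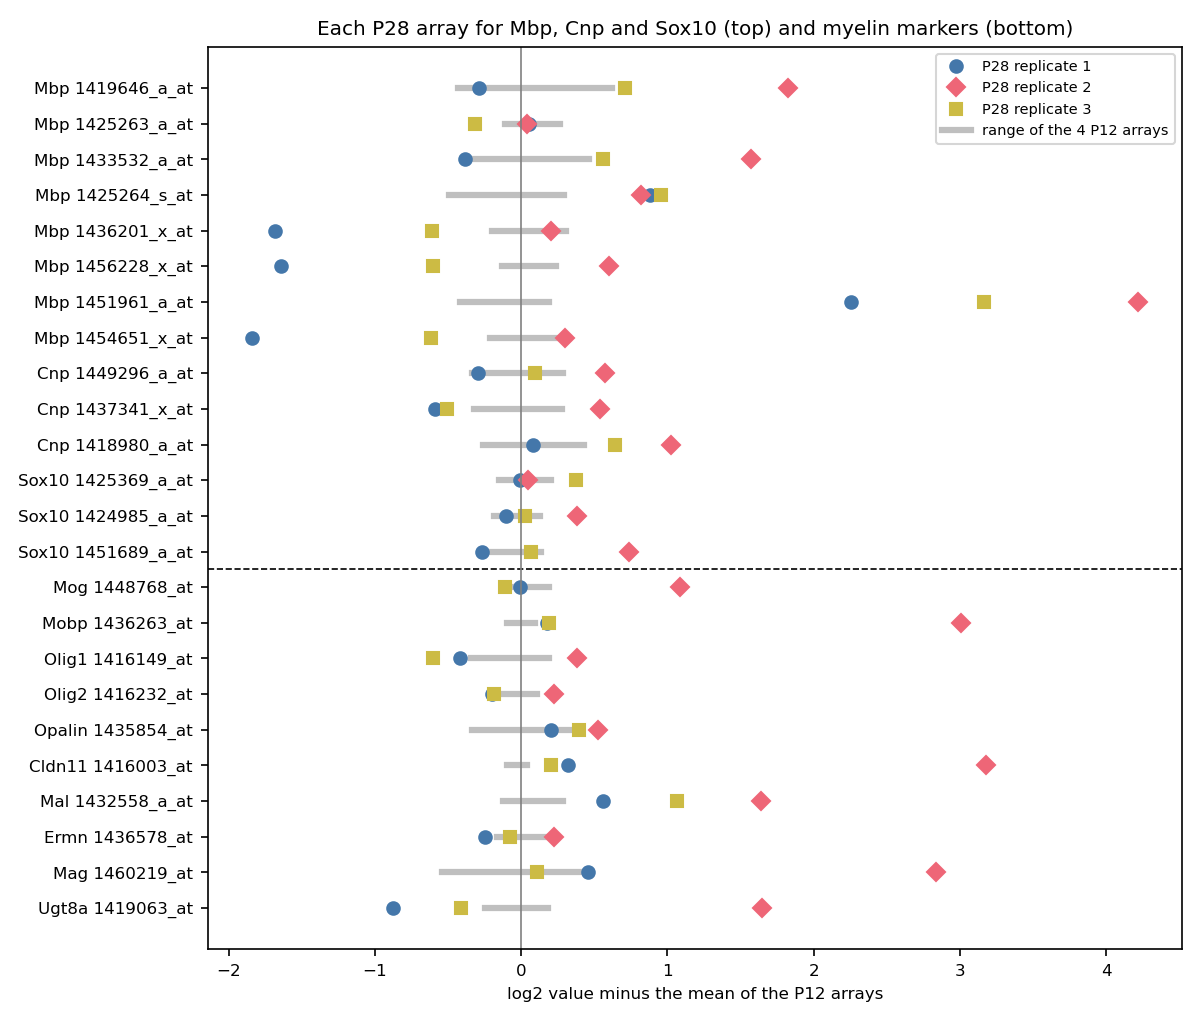
Log2 value of each P28 array minus the mean of the 4 P12 arrays (x axis) for the probe sets of Mbp, Cnp and Sox10 (above the dashed line) and for oligodendrocyte and myelin markers (below it); grey bars span the P12 arrays. P28 replicate 2 lies alone to the right for Mobp, Cldn11, Mag and Ugt8a, whereas all 3 P28 arrays lie to the right of the grey bar for Mbp 1451961_a_at.

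A 3′ to 5′ control difference, read as a measure of RNA degradation, was lower at P28 and alike at P1 and P12. The 3′ minus 5′ log2 value of the Gapdh control probe sets was 2.17 ± 0.60 at P1, 2.10 ± 0.88 at P12 and 0.90 ± 0.10 at P28 (SD, n = 4, 4 and 3). Within P1 and P12 it split by array set, with 2.59 to 3.05 in replicates 1 and 2 and 1.32 to 1.69 in replicates 3 and 4. With this value as a covariate, both Mbp probe sets and 2 of Ednrb still passed at P28 against both younger ages, while Ednrb 1423594_a_at (0.90 against P12, adjusted p = 0.0584) and Cnp 1418980_a_at (0.86 against P1, adjusted p = 0.0538) lost theirs.

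For the probe sets called by the F test, the genes whose profile over the 11 arrays lay nearest, by the root mean square difference of mean-centred values, are given as a description. For Mbp 1451961_a_at these were Cdh5, an endothelial cadherin gene (0.23), Myoz3 (0.34) and Eef1a2 (0.35). For Ednrb 1437347_at they were Tyrobp, an adaptor gene of myeloid cells (0.28), Bcr and Ccl9 (0.30 each). For Cnp 1418980_a_at the nearest was Ttc7 (0.18), for Pmp22 1417133_at Dpp9 (0.07) and for Mitf 1455214_at Niban2 (0.11). The arrays of an age share muscle, sort and any batch, so such likeness follows in part from the 3 age levels.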

How the data were processed

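The authors deposited log2 values per probe set made by RMA. The tools in the submitters' processing notes are affy, RMA and Affymetrix Expression Console. Their versions and roles are not given in the sources used here. Of 45101 probe sets, 64 controls were left out, and 34958 carried 1 gene symbol, 932 several and 9211 none in the platform annotation. Members and lists were chosen with earlier results of these data known.

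Group means over 11 arrays were fitted with limma 3.58.1 in R 4.3.3 (lmFit, contrasts, eBayes; 8 residual and 5.82 prior degrees of freedom), two-sided, adjusted over 45037 probe sets. All member probe sets were named. List genes were named from the first 4 genes of each list and from up to 4 called genes per list, direction and comparison by size of change. They were read from the brightest probe set, and not all genes that this rule allows are named. Cldn11, Mag and Ugt8a were added after their values were seen. On simulated data, the test recovered 82.1% of changes of log2 1 between P12 and P1, 74.6% between P28 and P12 and 68.7% between P28 and P1. Of changes of log2 0.5 it recovered 14.9%, 7.46% and 7.46%. Only 121 to 134 probe sets were called there, against 2181 or more in the real comparisons, so the adjusted threshold was stricter. These shares therefore do not give the reach of the real tests for small member changes, which was not tested.

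Replicate numbers are shared in the labels. Deviations from the age means correlated at 0.14, 0.21, 0.31 and 0.18 between same-numbered P1 and P12 arrays, so the number was also fitted as a block. Differently numbered arrays within replicates 1 and 2, or within 3 and 4, correlated as much (0.14 to 0.25). The check therefore cannot tell pairs by number from these array sets. P28 did not pair. No 2 arrays held identical values. Alternatives were the block, normalization, dim probe sets, eBayes options, array weights, the Gapdh covariate, array sets and leaving out each array.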

Additional observations from a re-analysis of the deposited data

Results flagged for a closer look

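In 2 of 44 groups of 4 arrays, 1 array stood apart from the others by Dixon's test, which chance alone does in about 1 in 20 groups. Mbp 1425263_a_at was 5.39 in P12 replicate 3, against 5.01 to 5.06 in the other P12 arrays. S100b 1434342_at was 5.64 in P12 replicate 4, against 4.47 to 4.62 in the other P12 arrays. Neither probe set passed in any comparison.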

How the results depend on the processing

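Of 1354 member changes recomputed under the alternatives, 1320 stayed on the same side of the threshold, 26 newly passed, 8 no longer passed and 0 passed in the opposite direction. For P12 against P1 the count of 0 became 1 with array weights, 1 with the Gapdh covariate, 2 with the array set block and 2 with the replicate block on P1 and P12 arrays alone, and 0 to 1 without 1 array at a time (1 without P12 replicate 3, Pmp22 1417133_at at 0.52). Under the array set block Pmp22 1417133_at rose by 0.44 and Ednrb 1437347_at fell by 0.65. For P28 against P12 the count of 5 became 1 with 1 probe set per gene symbol and 5 to 9 without 1 array: 8 without P28 replicate 1, and 9 without P28 replicate 2, of which 5 rose and 4 fell. For P28 against P1 the count of 8 became 3 with 1 probe set per gene symbol, where 7 probe sets were tested, and 7 to 11 without 1 array, and for any difference 3 and 6 to 11. The replicate block over all arrays gave 0, 6 and 8. A further quantile normalization gave 7 higher and 2 lower at P28 against P1, Mbp 1436201_x_at (-0.94) and Mbp 1454651_x_at (-0.98), and the cause was not tested. Over all probe sets it called 7260 higher and 8739 lower there, median centring 8713 and 6968, and the values as deposited 7917 and 7836. For P12 against P1, quantile normalization called 1071 and 991, and the deposited values 1464 and 717. The number of arrays, 3 at P28, limits the precision.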
